A study of Mus musculus with 4 samples.

Results

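The genes described here encode the degradative machinery of the cell: lysosomal proteases, the lysosomal membrane glycoprotein Lamp2, the proton pump that acidifies endosomes and lysosomes, the autophagy proteins and the Vps proteins that sort cargo towards the lysosome or away from it. They are the rows of the deposited table whose symbol begins with Cts plus 1 letter, Lamp plus a digit, Atp6v, Atg plus a digit or Vps plus a digit. Ctsw, Ctss and Lamp1 match this pattern and were left out by the rule. This gave 79 genes of 11883 in the table: 10 cathepsins, Lamp2, 9 subunits of the V1 part and 7 of the V0 part of the vacuolar proton pump (V-ATPase), 18 Atg genes and 34 Vps genes. The rule reads symbols only and no measured value, but it was set with earlier results of these data known.

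RNA was sequenced from T helper 2 (Th2) cells sorted from digested lungs of C57BL/6 mice as live cells positive for CD4 and T1/ST2, the interleukin-33 receptor. All mice carried Gata3(fl/fl), a Gata3 allele that Cre recombinase can cut, and all had received chronic papain, a plant protease that causes allergic airway inflammation. Klrg1Cre Gata3(fl/fl) mice (2 samples, called Klrg1Cre) carried in addition a Cre named for Klrg1, and Gata3(fl/fl) mice (2 samples, called control) did not. A Cre cuts only where its driver has been active, and no group had Klrg1Cre without floxed Gata3, so loss of Gata3 and the Cre allele itself cannot be told apart. The headers name the groups ILC2 deficient and WT, which were taken as Klrg1Cre and control because control lacks Cre. ILC2 are group 2 innate lymphoid cells, which are not the cells sequenced here. The labels do not say whether Gata3 was cut in the sequenced Th2 cells. A loss of Gata3 in these cells and the lack of ILC2 that the header names cannot be told apart either. The labels do not say that the samples were separate animals, so the p-values cover a spread that may be technical.

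Lysosomes digest proteins, lipids and sugars with hydrolases that work at acid pH. Autophagy delivers the cell's own cytoplasm and organelles to them inside a double membrane, and endosomes deliver cargo from the surface. In T cells autophagy is known for sustaining survival and metabolism during activation and memory, while macrophages are the cells best known for abundant lysosomes and cathepsins.

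The deposited values are group means in CPM (read counts scaled to equal library totals) with the authors' p-values, and they give no spread. For 38 of the 79 genes, exactly 1 pair of whole read numbers gives the mean of each genotype, and so the value of every library is known. The library totals worked out this way were 26019065 and 14564426 reads in Klrg1Cre and 33379572 and 31961572 reads in control. Which library is the first or second sample of its genotype is unknown, so they are told apart here by size, as larger and smaller. For the other 41 genes, Ctsb, Lamp2, Atg4d and Vps37c among them, the libraries are not known in both genotypes. In the deposited table the ribosomal RNA precursor Rn45s held 67.1% of Klrg1Cre reads and 51.4% of control reads, and the other listed genes held 18.2% in Klrg1Cre and 17.8% in control. Scaling to those other genes shifted every log2 ratio by 0.03.

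None of the 79 genes passed the authors' adjusted p of 0.05 over all genes, where 7 of 11883 genes (0.0589%) did, and the lowest deposited adjusted p among the 79 was 0.634. At an unadjusted p below 0.05, 2 of the 79 were higher in Klrg1Cre, beside 3.72% of all genes, and 0 were lower, beside 3.37%. In either direction this is 2 of 79 genes (2.53%) beside 843 of 11883 (7.09%). The 2 genes were Atg4d and Vps37c. By limma on log2(CPM + 1), run on the 5351 genes with known libraries, 0 of 38 members passed the adjusted p and 0 had an unadjusted p below 0.05, beside 7.79% of the genes run. The lowest limma p among members was 0.0781. A p above the threshold does not show equal levels.

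The deposited ratios of these genes lay close to 1. The median log2 ratio of Klrg1Cre to control was 0.01 over the 79 genes and 0.01 over all genes, with 41 members higher and 38 lower. With the filter set at 5 CPM for the mean over both genotypes, 62 of 69 members (89.9%) were within 1.25-fold in the deposited table, beside 5069 of 6300 genes (80.5%). Beyond 1.5-fold stood 1 member, Ctsh, beside 254 of those genes (4.03%). By role, the median log2 ratios were 0.03 for cathepsins, 0.02 for V1, 0.00 for V0, 0.06 for Atg genes and -0.04 for Vps genes.

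**Figure D1:**
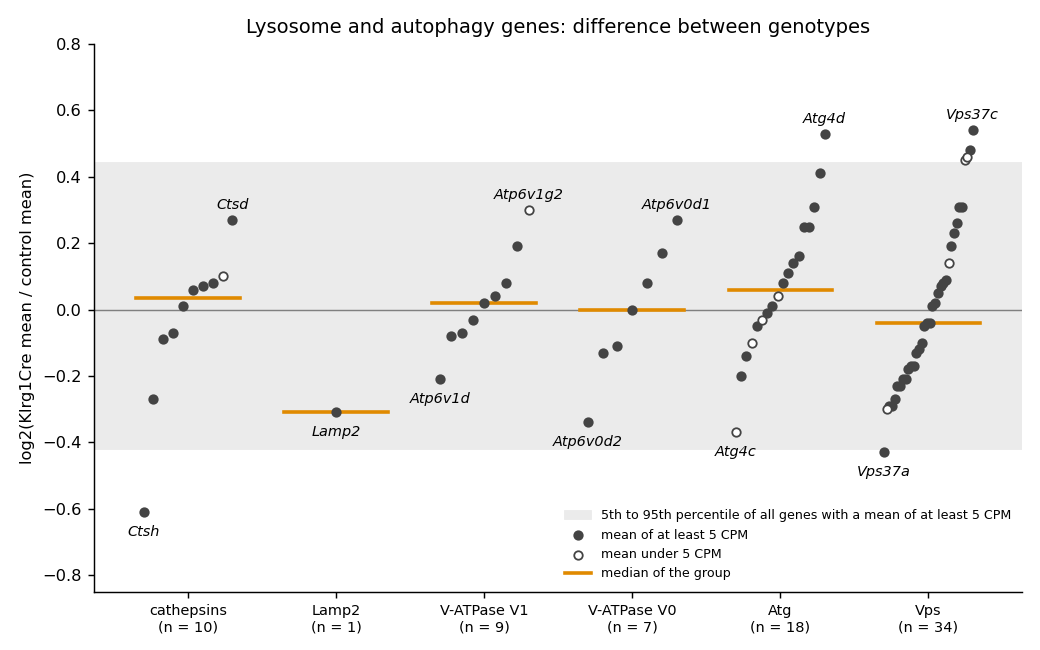
Each point is 1 of the 79 genes, placed by the log2 ratio of the deposited Klrg1Cre mean to the deposited control mean (y axis) and by role (x axis). Orange bars are group medians, open points have a mean under 5 CPM, and the grey band runs from the 5th to the 95th percentile of all genes of at least 5 CPM, -0.42 to 0.44. Only Ctsh, Atg4d, Vps37c, Vps13d and Vps37a lie outside the band among genes of at least 5 CPM.

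The Klrg1Cre libraries differed from each other in several cathepsin and V-ATPase genes. Of the 35 members of at least 5 CPM with known libraries, 7 were more than 1.5-fold higher in the larger Klrg1Cre library than in the smaller one (20.0%), beside 170 of 2688 genes (6.32%). These 7 were Ctsd, Ctsz, Ctsk, Ctsl, Atp6v0d2, Atp6v1b2 and Atp6v1c1. Between the control libraries 0 of the 35 were that much higher in the larger library, beside 125 of 2688 genes (4.65%). These counts cover 1 direction only, and over all 35 members the control libraries were not closer to each other. Whatever the direction, the median absolute log2 difference of the 35 was 0.24 between the Klrg1Cre and 0.25 between the control libraries. By role it was 0.88 in Klrg1Cre and 0.18 in control for cathepsins, and 0.45 in Klrg1Cre and 0.19 in control for V1. The other roles went the other way, with 0.16 in Klrg1Cre and 0.28 in control for V0. For Atg genes it was 0.19 in Klrg1Cre and 0.26 in control, and for Vps genes 0.18 in Klrg1Cre and 0.27 in control. Over the 2688 genes it was 0.20 in Klrg1Cre and 0.19 in control. The difference between single libraries has no replicate and was not tested. The results below are therefore given by library where they are known.

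Most macrophage markers with known libraries were also higher in the larger Klrg1Cre library. The libraries of Chil3, Lyz2 and Cd68, the macrophage markers with the highest means, are not known. All 15 macrophage markers chosen were in the table, and their deposited means summed to 1640.1 CPM in Klrg1Cre and 2412 CPM in control, most of it from Chil3 at 1124 CPM in Klrg1Cre and 1932 CPM in control. Chil3 had an unadjusted p of 0.0165 and an adjusted p of 0.599 in the deposited table, and Marco was listed at 0 in control. The 10 markers with known libraries summed to 56.4 CPM in the larger and 40.0 CPM in the smaller Klrg1Cre library, and to 54.7 CPM in the larger and 55.1 CPM in the smaller control library. Of these 10 markers, 9 were higher in the larger Klrg1Cre library and 3 were higher in the larger control library. Only 4 of the 10 had a mean of at least 5 CPM. Of these 4, 3 were higher in the larger Klrg1Cre library, beside 1288 of 2688 genes. In the larger control library 2 of the 4 were higher, beside 1373 of 2688 genes. Csf1r was level between the Klrg1Cre libraries, at 11.7 CPM in the larger and 12.0 CPM in the smaller. The 5 T cell markers with known libraries summed to 586 and 620.4 CPM in the larger and smaller Klrg1Cre libraries, and to 603 and 584 CPM in the larger and smaller control libraries. The sort marker gene Cd4 and the T cell gene Cd3e were present. Cd4 had deposited means of 168 CPM for Klrg1Cre and 150.1 CPM for control, and Cd3e 76.6 CPM for Klrg1Cre and 73.0 CPM for control. Markers of B cells, of eosinophils and neutrophils, of dendritic cells and of epithelium summed to between 1.72 and 24.3 CPM per list in Klrg1Cre and between 3.18 and 18.0 CPM in control by deposited means, and the B cell gene Ms4a1 was listed at 0 in Klrg1Cre. On these lists 4 genes had an unadjusted p below 0.05 in the deposited table, and 0 passed the adjusted p. By list they were 0 of 4 B cell, 1 of 3 eosinophil and neutrophil, 1 of 4 dendritic cell and 2 of 3 epithelial genes. Over all genes the share at that p was 7.09%, and these short lists were not tested as sets. Deposited means were lower in Klrg1Cre for Ccr3, on the eosinophil and neutrophil list, at 2.89 CPM against 5.58 CPM in control (unadjusted p = 0.0165). The epithelial marker Epcam was also lower, at 0.921 CPM against 2.78 CPM in control (unadjusted p = 0.0300). Higher in Klrg1Cre was the epithelial marker Scgb1a1, at 4.23 CPM against 2.57 CPM in control (unadjusted p = 0.0435). So was H2-Aa, an MHC class II gene on the dendritic cell list, at 17.2 CPM against 12.9 CPM in control (unadjusted p = 0.0414). All 4 listed dendritic cell markers had higher deposited means in Klrg1Cre. Of these, Xcr1 differed little, at 2.79 CPM against 2.62 CPM in control (unadjusted p = 0.888). Zbtb46 was low, at 0.673 CPM in Klrg1Cre and 0.218 CPM in control. Ccr7 was also low, at 3.64 CPM in Klrg1Cre and 2.25 CPM in control (unadjusted p = 0.0921 in the deposited table). Of the markers chosen, 2 of 6 for dendritic cells and 3 of 6 for eosinophils and neutrophils were not in the deposited table. The part of RNA from macrophages or these other cells in the levels of the lysosomal genes was not tested. In bulk samples, fewer cells of a type and less RNA per cell cannot be told apart.

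**Figure D2:**
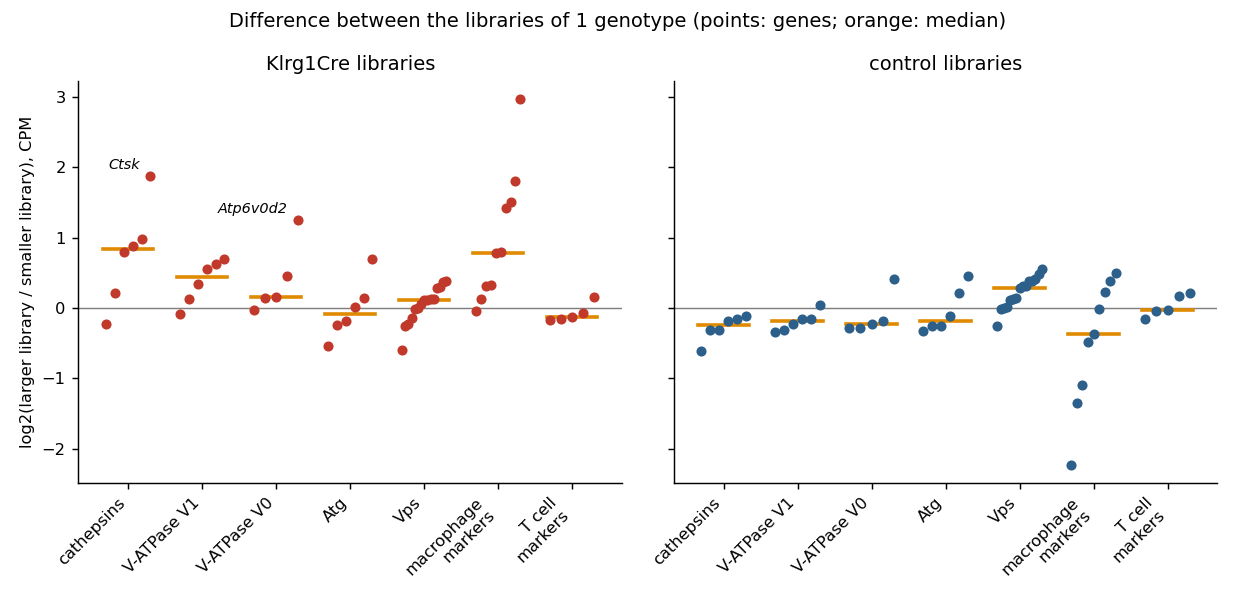
Each point is 1 gene with known libraries, placed by the log2 ratio of the larger to the smaller library of the same genotype (y axis), for Klrg1Cre on the left and control on the right. Orange bars are medians over the genes shown, with markers listed at 0 in a library left out. Ctsk at 1.88 and Atp6v0d2 at 1.25 stand highest among the cathepsin, V-ATPase, Atg and Vps genes in Klrg1Cre, on the side where most macrophage markers also lie, and T cell markers lie near 0.

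Cathepsins are the proteases of the lysosome, and 0 of 10 had an unadjusted p below 0.05 in the deposited table, with 6 higher and 4 lower in Klrg1Cre. Ctsd encodes the main aspartic protease of lysosomes. It had 538 CPM in the larger and 308 CPM in the smaller Klrg1Cre library, against 332 CPM in the larger and 369.5 CPM in the smaller control library. The genotypes overlapped, since 1 Klrg1Cre library was the highest and the other the lowest of the 4. Its deposited log2 ratio was 0.27 (unadjusted p = 0.355, adjusted p = 0.852), and the log2 ratio was -0.18 without the larger and 0.62 without the smaller Klrg1Cre library. Ctsb, a cysteine protease of the papain family, had deposited means of 311 CPM for Klrg1Cre and 299 CPM for control (adjusted p = 0.997). Both are among the members with the highest levels per transcript length: Ctsd had 199 CPM per kb in Klrg1Cre and 165 in control by deposited means, and Ctsb 65.6 in Klrg1Cre and 63.1 in control.

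Ctsz, a carboxypeptidase of the papain family, had 213 and 115 CPM in the larger and smaller Klrg1Cre libraries, against 153 and 173 CPM in the larger and smaller control libraries. Ctsk, a collagen-degrading protease best known from osteoclasts, had 53.7 and 14.6 CPM in the larger and smaller Klrg1Cre libraries, against 29.1 and 36.0 CPM in control. Ctsl, another papain-family protease, had 21.7 and 11.0 CPM in Klrg1Cre, against 15.6 and 23.8 CPM in control. In Ctsz and Ctsk the larger Klrg1Cre library was the highest of the 4 and the smaller one the lowest, and in Ctsl the smaller Klrg1Cre library was the lowest. Between the Klrg1Cre libraries the fold was 3.67 for Ctsk, 1.97 for Ctsl, 1.85 for Ctsz and 1.75 for Ctsd. In the control libraries the same 4 genes were 0.657 to 0.897 times as high in the larger as in the smaller library. Over the 6 cathepsins with known libraries the median log2 ratio between genotypes was 0.04, and it was -0.34 without the larger and 0.30 without the smaller Klrg1Cre library. It was -0.07 without the larger and 0.17 without the smaller control library, so its direction depended on which library was left out.

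Ctsh, an aminopeptidase of the papain family, had the lowest ratio of the cathepsins. Its deposited means were 10.3 CPM for Klrg1Cre and 15.8 CPM for control. That is 1.53-fold lower, with an unadjusted p of 0.0597 and an adjusted p of 0.709 in the authors' deposited table, so it did not pass. Its libraries are not known. Ctsa, a serine carboxypeptidase that also protects lysosomal sialidase and beta-galactosidase, had deposited means of 137 CPM for Klrg1Cre and 129 CPM for control. Ctsc, which activates the serine proteases of cytotoxic granules, had deposited means of 35.1 CPM for Klrg1Cre and 37.5 CPM for control. Ctso had 6.69 and 7.83 CPM in the Klrg1Cre libraries against 7.31 and 7.88 CPM in control, and Ctse, an endosomal aspartic protease, 3.69 and 3.16 CPM in Klrg1Cre against 2.85 and 3.54 CPM in control. Ctso and Ctse did not show the difference between the Klrg1Cre libraries that Ctsd, Ctsz, Ctsk and Ctsl had.

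**Figure D3:**
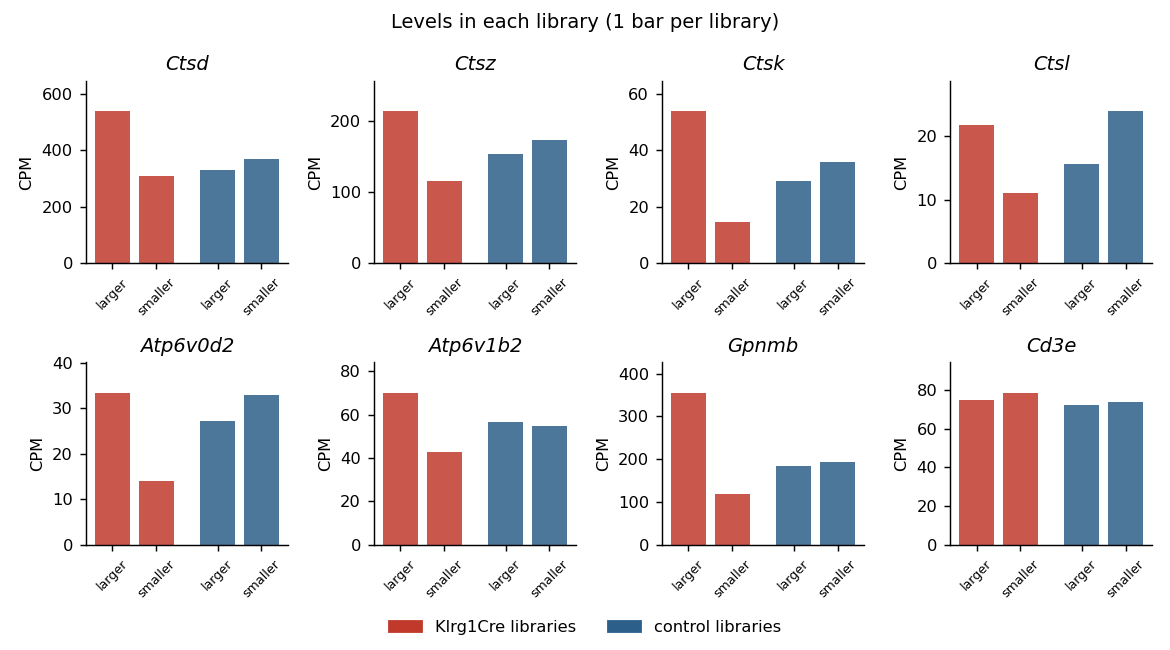
Bars give the level in CPM (y axes, each from 0) of 1 gene in each of the 4 libraries, Klrg1Cre on the left and control on the right of each panel. Ctsd, Ctsz, Ctsk, Atp6v0d2, Atp6v1b2 and Gpnmb are highest in the larger and lowest in the smaller Klrg1Cre library, with the control libraries between them. For Atp6v0d2 the margin at the top is small, 33.4 CPM against 33.0 CPM in the smaller control library. Cd3e, a T cell marker, lies between 72.1 and 78.5 CPM in all 4 libraries. Other T cell markers, not shown, varied more, from 141 to 177 CPM for Cd4 and from 118 to 144 CPM for Cd5. Cd3d ran from 105 to 127 CPM and Cd3g from 115 to 130.5 CPM.

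Lamp2 encodes a heavily glycosylated protein of the lysosomal membrane, 1 splice form of which serves as the receptor of chaperone-mediated autophagy. The deposited means were 26.6 CPM in Klrg1Cre and 33.0 CPM in the control mice. The log2 ratio of -0.31 did not pass (unadjusted p = 0.148, adjusted p = 0.769). The table holds 1 value per gene, so splice forms cannot be told apart.

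The V-ATPase pumps protons with a V1 part in the cytosol that splits ATP and a V0 part in the membrane that carries the protons. In the deposited table, 0 of its 16 listed subunit genes had an unadjusted p below 0.05, 8 were higher and 8 lower in Klrg1Cre, and the log2 ratios ran from -0.34 to 0.30. Summed deposited means were 277 CPM in Klrg1Cre and 279 CPM in control for V1, and 331 CPM in Klrg1Cre and 322 CPM in control for V0. In V1, Atp6v1a, which encodes the catalytic subunit, had the highest ratio of the subunits of at least 5 CPM, with deposited means of 32.0 CPM for Klrg1Cre and 28.0 CPM for control (unadjusted p = 0.335). Atp6v1d, a subunit of the rotating stalk, had the lowest, with 30.4 and 20.7 CPM in the larger and smaller Klrg1Cre libraries, against 28.1 and 31.1 CPM in control. Without the larger Klrg1Cre library its log2 ratio was -0.51, and without the smaller one 0.04. Atp6v1b2, the B subunit, had 70.0 and 43.0 CPM in the larger and smaller Klrg1Cre libraries, against 56.4 and 54.7 CPM in control. Atp6v1c1, the C subunit that joins V1 to V0, had 30.8 and 20.0 CPM in Klrg1Cre, against 22.1 and 26.0 CPM in control. Atp6v1f, a further rotor subunit, had 50.3 and 53.3 CPM in Klrg1Cre, against 48.7 and 60.4 CPM in control. Atp6v1e1 and Atp6v1g1, which encode the outer stalk that holds the pump still, also overlapped. Atp6v1e1 had 30.0 and 27.4 CPM in the larger and smaller Klrg1Cre libraries, against 24.6 and 31.2 CPM in control. Atp6v1g1 had 47.3 and 37.3 CPM in Klrg1Cre, against 42.5 and 47.2 CPM in control. Atp6v1h, a regulatory subunit, had deposited means of 12.8 CPM for Klrg1Cre and 13.1 CPM for control. All 6 V1 genes with known libraries overlapped between genotypes. Their median log2 ratio was -0.02. It was -0.27 without the larger and 0.09 without the smaller Klrg1Cre library. Leaving out a control library gave -0.14 for the larger and 0.05 for the smaller, so its direction depended on which library was left out.

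In V0, Atp6v0d2 and Atp6v0d1 encode alternative forms of the d subunit, which couples the rotor to the membrane ring. Atp6v0d1 is found in most tissues, whereas Atp6v0d2 is known from osteoclasts, macrophages and kidney. Atp6v0d2 had 33.4 CPM in the larger and 14.1 CPM in the smaller Klrg1Cre library, against 27.2 and 33.0 CPM in the larger and smaller control libraries. Atp6v0d1 had 19.3 and 17.3 CPM in Klrg1Cre, against 13.7 and 16.7 CPM in control, so both Klrg1Cre libraries were above both control libraries. The ratio of Atp6v0d2 to Atp6v0d1 was 1.73 in the larger and 0.813 in the smaller Klrg1Cre library, against 1.98 in both control libraries. Both Klrg1Cre libraries were thus below control in this ratio, by very unequal amounts. With 2 against 2 libraries an exact permutation test of 1 value cannot go below a two-sided p of 0.333, so none is given. By deposited means the ratio of Atp6v0a2 to Atp6v0a1 was 2.21 in Klrg1Cre and 2.18 in control. That of Atp6v1g2 to Atp6v1g1 was 0.0374 in Klrg1Cre and 0.0287 in control. Ratios are given here for only some of the gene pairs computed, and none was tested. The deposited log2 ratios were -0.34 for Atp6v0d2 (unadjusted p = 0.191) and 0.27 for Atp6v0d1 (unadjusted p = 0.155). Without the larger Klrg1Cre library that of Atp6v0d2 became -1.10, and without the smaller one 0.15.

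The proteolipid ring that carries the protons is built from the products of Atp6v0c and Atp6v0b. Atp6v0c had deposited means of 167 CPM for Klrg1Cre and 157 CPM for control, and Atp6v0b had 50.3 and 36.5 CPM in the larger and smaller Klrg1Cre libraries, against 36.3 and 41.1 CPM in control. Atp6v0c has pseudogene copies, and how reads shared between copies were counted is not given in the sources used here. Atp6v0e, a small membrane subunit, had 54.5 and 55.6 CPM in Klrg1Cre, against 50.8 and 59.5 CPM in control. Per kb of transcript the deposited Klrg1Cre means of V0 genes ran from 2.73 CPM for Atp6v0a1 to 141 CPM for Atp6v0c, and the control means from 2.99 to 133 CPM for the same 2 genes. Those of V1 ran from 1.04 CPM in Klrg1Cre and 0.842 CPM in control for Atp6v1g2 to 73.7 CPM in Klrg1Cre and 77.6 CPM in control for Atp6v1f. Of the 10 other genes of the pump and its assembly that were looked up, 0 had an unadjusted p below 0.05, with a median log2 ratio of -0.03. Among them Tcirg1, which encodes the a3 form of the V0 a subunit, had deposited means of 42.4 CPM for Klrg1Cre and 37.6 CPM for control.

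**Figure D4:**
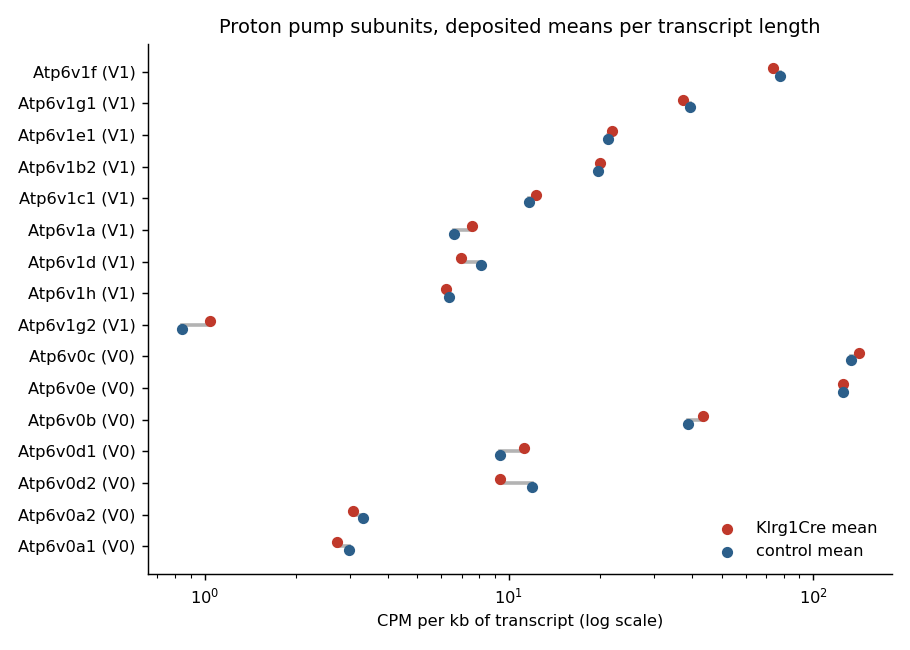
Points give the deposited mean per kb of transcript (x axis, log scale) of each listed V-ATPase subunit gene, in Klrg1Cre (red, upper) and control (blue, lower), with V1 above V0. The levels differ widely between subunits and by less between genotypes, where Atp6v0d2, at 9.35 CPM per kb in Klrg1Cre and 11.9 in control, has the largest log2 difference.

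The transcription factor TFEB and its relatives TFE3 and MITF are known to bind the CLEAR element, found near the starts of many lysosomal genes. TCACGTGA is the core of this element, which in full has 1 base more on each side. RefSeq promoters of build GRCm38.p6, from 250 bases before to 50 after the start, were at hand for 55 of the 79 genes. This is under 80%, so a check of the whole group for this property is void, and the counts describe the 55 genes only. TCACGTGA, which reads the same on both strands, occurred in a promoter of 9 of the 55 genes (16.4%), beside 224 of 9537 genes of the deposited table with a promoter (2.35%) and 0.974% of all 32851 windows. The full CLEAR element occurred in 3 of the 55 genes (5.45%), all Vps genes, beside 80 of 9537 (0.839%). The 9 genes with the core were Ctsa, Ctsd, Atp6v1a, Atp6v0d1, Atp6v0e, Atg3, Vps16, Vps26a and Vps33a. The shorter letters CACGTG, which TCACGTGA contains, occurred in 15 of the 55 genes (27.3%), beside 1147 of 9537 (12.0%). Between genotypes the median deposited log2 ratio was 0.00 for the 9 genes with TCACGTGA and 0.01 for the other 46, and it was 0.11 for the 15 genes with CACGTG and -0.02 for those without. For the full CLEAR element it was -0.13 with and 0.03 without. These medians are descriptions and were not tested. Tfeb itself had deposited means of 7.93 CPM for Klrg1Cre and 7.68 CPM for control, Tfe3 10.1 CPM for Klrg1Cre and 13.0 CPM for control (unadjusted p = 0.0708), and Mitf 2.69 CPM for Klrg1Cre and 1.54 CPM for control (unadjusted p = 0.0551). A match of letters does not show binding.

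Promoters of 4 of these genes are shown, a protease of each of 2 classes, a pump subunit and a tethering protein, with each TCACGTGA in capitals:
Ctsd promoter (GRCm38.p6, chr7:142387778-142388077, minus strand): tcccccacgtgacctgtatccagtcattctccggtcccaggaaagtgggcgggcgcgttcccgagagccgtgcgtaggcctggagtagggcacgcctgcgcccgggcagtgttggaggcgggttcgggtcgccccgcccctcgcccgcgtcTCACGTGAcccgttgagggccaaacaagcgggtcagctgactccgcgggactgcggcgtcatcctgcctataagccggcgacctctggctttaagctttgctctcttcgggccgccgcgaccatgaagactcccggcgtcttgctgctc
Ctsa promoter (GRCm38.p6, chr2:164833523-164833822, plus strand): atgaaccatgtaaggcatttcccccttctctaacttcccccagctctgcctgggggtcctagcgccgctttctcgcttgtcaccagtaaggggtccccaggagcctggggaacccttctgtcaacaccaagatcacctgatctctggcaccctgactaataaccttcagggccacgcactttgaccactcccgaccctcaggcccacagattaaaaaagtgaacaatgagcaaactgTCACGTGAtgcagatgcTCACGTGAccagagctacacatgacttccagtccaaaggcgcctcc
Atp6v0d1 promoter (GRCm38.p6, chr8:105566015-105566314, minus strand): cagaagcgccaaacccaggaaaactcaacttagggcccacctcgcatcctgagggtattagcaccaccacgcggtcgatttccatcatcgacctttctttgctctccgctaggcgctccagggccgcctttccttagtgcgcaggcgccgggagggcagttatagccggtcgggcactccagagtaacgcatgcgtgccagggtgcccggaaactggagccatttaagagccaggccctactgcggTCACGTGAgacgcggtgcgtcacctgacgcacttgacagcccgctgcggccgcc
Vps33a promoter (GRCm38.p6, chr5:123572966-123573265, minus strand): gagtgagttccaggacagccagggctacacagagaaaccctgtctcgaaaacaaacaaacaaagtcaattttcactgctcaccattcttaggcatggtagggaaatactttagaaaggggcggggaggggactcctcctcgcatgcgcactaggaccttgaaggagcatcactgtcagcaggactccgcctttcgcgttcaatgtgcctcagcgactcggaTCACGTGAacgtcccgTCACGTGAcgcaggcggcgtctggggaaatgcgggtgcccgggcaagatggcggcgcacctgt

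The Atg proteins build the autophagosome, and of their 18 listed genes 11 were higher and 7 lower in Klrg1Cre in the deposited table, with 1, Atg4d, at an unadjusted p below 0.05. Atg4 proteases trim LC3-family proteins before these are joined to lipid and release them again afterwards. Atg4d had deposited means of 20.2 CPM for Klrg1Cre and 14.0 CPM for control, 1.44-fold higher (unadjusted p = 0.0271, adjusted p = 0.634), so it did not pass. Its libraries are not known. The other Atg4 genes had deposited means for Klrg1Cre and control of 18.3 against 18.1 CPM (Atg4b), 2.45 against 2.38 CPM (Atg4a) and 0.625 against 0.807 CPM (Atg4c). The ratio of Atg4d to Atg4b was 1.11 in Klrg1Cre and 0.773 in control by deposited means.

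Of the proteins that supply lipid to the growing membrane, Atg9a, a lipid scramblase on vesicles, had deposited means of 13.7 CPM for Klrg1Cre and 10.3 CPM for control (unadjusted p = 0.0603, adjusted p = 0.710). Atg2a and Atg2b encode lipid transfer proteins that work with it. Atg2a had 21.0 and 19.0 CPM in the larger and smaller Klrg1Cre libraries, against 18.8 and 13.6 CPM in control. Atg2b had 7.34 and 8.38 CPM in Klrg1Cre, against 9.71 and 8.35 CPM in control. Atg2a was thus above control in both Klrg1Cre libraries, by little over 1 of the control libraries, and Atg2b overlapped. The ratio of Atg2a to Atg2b was 2.86 and 2.27 in the larger and smaller Klrg1Cre libraries, against 1.93 and 1.63 in the control libraries.

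The ULK kinase complex starts autophagy with Atg13 and Atg101 as subunits. Atg101 had 20.6 and 24.3 CPM in the larger and smaller Klrg1Cre libraries, against 17.2 and 20.6 CPM in control, so the lower Klrg1Cre and the higher control library were equal at this rounding. Atg13 had deposited means of 15.0 CPM in each genotype. Of the conjugation genes, which attach LC3-family proteins to lipid, 0 of 7 had an unadjusted p below 0.05. Atg16l2, a relative of the scaffold gene Atg16l1, had the highest deposited means of this set, 23.3 CPM for Klrg1Cre and 20.9 CPM for control, and Atg16l1 had 8.50 CPM for Klrg1Cre and 9.39 CPM for control. Atg7, the enzyme that activates Atg12 and LC3, had deposited means of 12.4 CPM for Klrg1Cre and 10.4 CPM for control, Atg5 11.7 CPM for Klrg1Cre and 10.8 CPM for control, and Atg3 7.43 CPM for Klrg1Cre and 7.67 CPM for control. Atg10, the enzyme that joins Atg12 to Atg5, was low, with 1.11 and 0.687 CPM in the larger and smaller Klrg1Cre libraries, against 0.839 and 1.00 CPM in control. Atg14, a subunit of the lipid kinase complex that marks the forming membrane, had 6.34 and 6.25 CPM in Klrg1Cre, against 5.06 and 6.35 CPM in control. Atg12 had 10.8 and 15.8 CPM in the larger and smaller Klrg1Cre libraries, against 12.1 and 13.1 CPM in control, so within Klrg1Cre it was lower in the larger library, unlike Ctsd, Ctsz, Ctsk and Ctsl. Over the 5 Atg genes of at least 5 CPM with known libraries the median log2 ratio of the larger to the smaller Klrg1Cre library was -0.19, against 0.88 over the 5 such cathepsins.

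The 34 Vps genes serve several protein complexes. By deposited means, 16 were higher and 18 lower in Klrg1Cre, and 1, Vps37c, had an unadjusted p below 0.05. The ESCRT machinery sorts ubiquitinated receptors into vesicles inside endosomes, and the Vps37 proteins are alternative subunits of its first complex. Vps37c had deposited means of 10.4 CPM for Klrg1Cre and 7.15 CPM for control, 1.46-fold higher (unadjusted p = 0.0280, adjusted p = 0.637), so it did not pass. Vps37a had 4.62 CPM for Klrg1Cre and 6.21 CPM for control by deposited means, 1.34-fold lower (unadjusted p = 0.119), the lowest ratio of the Vps genes. Vps37b had 16.3 and 24.5 CPM in the larger and smaller Klrg1Cre libraries, against 22.8 and 17.5 CPM in control, with wide overlap. By deposited means the ratio of Vps37c to Vps37a was 2.25 in Klrg1Cre and 1.15 in control, a pair picked out after the values were seen. The shared subunit Vps28, with the highest mean of the Vps genes, had deposited means of 51.6 CPM for Klrg1Cre and 48.5 CPM for control. Vps25 and Vps36, subunits of ESCRT-II, had deposited means of 19.5 CPM for Klrg1Cre and 21.2 CPM for control and of 9.71 CPM for Klrg1Cre and 9.96 CPM for control. Of the ATPases that disassemble ESCRT, Vps4a had 11.2 and 10.3 CPM in the Klrg1Cre libraries against 13.7 and 9.29 CPM in control, and Vps4b 17.3 and 14.0 CPM in Klrg1Cre against 18.8 and 17.3 CPM in control.

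Retromer and retriever return cargo from endosomes to the Golgi or the cell surface, and both use Vps29. The 4 retromer genes all had lower deposited means in Klrg1Cre, with log2 ratios from -0.23 to -0.04 and no unadjusted p below 0.176. Among them the deposited means for Klrg1Cre and control were 27.6 against 32.3 CPM for Vps26b, 12.9 against 13.3 CPM for Vps26a and 22.7 against 23.4 CPM for Vps29. Vps35, the retromer scaffold, had 15.3 and 11.7 CPM in the larger and smaller Klrg1Cre libraries, against 15.2 and 15.4 CPM in control. Both genes particular to retriever had higher deposited means in Klrg1Cre, and neither passed the test. Vps35l had 27.3 and 27.7 CPM in the Klrg1Cre libraries, against 24.5 and 19.8 CPM in control (unadjusted p = 0.0770, adjusted p = 0.729). Vps26c had 27.3 and 25.1 CPM in the Klrg1Cre libraries, against 23.4 and 21.2 CPM in control (unadjusted p = 0.159). In both genes the 2 Klrg1Cre libraries were above the 2 control libraries.

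Of all members with known libraries, 8 of 38 had both Klrg1Cre libraries above both control libraries, beside 19.3% of the 5351 genes with known libraries, and 2 of 38 had both below, beside 18.3%. Together, 10 of 38 did not overlap, beside 37.6% of those genes. Besides Vps35l, Vps26c, Atg2a, Atg101 and Atp6v0d1, the genes above were Vps72, Vps45 and Vps18. Vps72, which despite its name encodes a subunit of chromatin remodelling complexes, had 22.3 and 21.4 CPM in Klrg1Cre, against 17.6 and 17.6 CPM in control (unadjusted p = 0.0737). The Klrg1Cre libraries were 1.04-fold apart in this gene, and the control libraries were equal at this rounding. Vps45, a regulator of membrane fusion at endosomes, had 3.38 and 3.09 CPM in Klrg1Cre, against 2.76 and 1.97 CPM in control.

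HOPS and CORVET tether lysosomes and early endosomes before fusion, and of their 7 listed genes 2 were higher and 5 lower in the deposited table, with 0 at an unadjusted p below 0.05. Among the shared core subunits, the deposited means for Klrg1Cre and control were 21.9 against 24.7 CPM for Vps16, 12.8 against 15.4 CPM for Vps11 and 12.6 against 13.8 CPM for Vps33a. Vps8, particular to CORVET, had deposited means of 3.15 CPM for Klrg1Cre and 3.87 CPM for control. The core subunit gene Vps18 had 15.5 and 15.4 CPM in the Klrg1Cre libraries, against 15.3 and 11.7 CPM in control, so it stood apart from 1 control library only by a small margin. Of the subunits particular to HOPS, Vps39 had deposited means of 13.1 CPM for Klrg1Cre and 11.0 CPM for control, and Vps41 had 12.3 and 9.54 CPM in the Klrg1Cre libraries against 11.3 and 13.4 CPM in control. The GARP and EARP complexes, which tether vesicles at the Golgi and at endosomes, had 5 genes listed with deposited log2 ratios from -0.29 for Vps54 to 0.14 for Vps50. Vps51, a subunit of both, had 17.3 and 20.3 CPM in the Klrg1Cre libraries, against 20.7 and 15.6 CPM in control.

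The VPS13 proteins are long bridges that carry lipid between organelles. Vps13d had deposited means of 13.0 CPM for Klrg1Cre and 9.29 CPM for control, 1.40-fold higher (unadjusted p = 0.0547, adjusted p = 0.705). The other 3 had lower deposited means in Klrg1Cre. Vps13a had 5.57 and 4.60 CPM in the Klrg1Cre libraries, against 6.26 and 6.19 CPM in control, so both were below control. Vps13b had 11.6 and 12.8 CPM in Klrg1Cre, against 15.4 and 12.7 CPM in control, and Vps13c 4.50 and 5.36 CPM in Klrg1Cre, against 6.41 and 5.13 CPM in control, and both overlapped. None of the 4 passed a test of its difference between genotypes, and the difference between Vps13d and the others was not tested.

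Further genes of these organelles were looked up. At an unadjusted p below 0.05 in the deposited table, 3.72% of all genes were higher and 3.37% lower in Klrg1Cre. Of 42 listed lysosomal hydrolase genes, 0 had an unadjusted p below 0.05 in the deposited table, and the median log2 ratio was 0.05. Of 29 other genes of lysosomal membranes and trafficking, 1 was higher at that p (3.45%) and 0 lower, with a median of -0.03. This was Cln3, which encodes a membrane protein lost in juvenile Batten disease, with deposited means of 17.3 CPM for Klrg1Cre and 11.8 CPM for control (unadjusted p = 0.0324, adjusted p = 0.653). Of 36 other autophagy genes, 1 was higher (2.78%) and 0 lower, with a median of -0.03. This was Ulk2, an autophagy-starting kinase, with 2.73 and 2.95 CPM in the Klrg1Cre libraries against 1.47 and 1.75 CPM in control (unadjusted p = 0.0470, adjusted p = 0.698). Of 37 other endosomal sorting genes, 0 had such a p, with a median of -0.03. Of 33 genes that control the growth kinase complex mTORC1 or TFEB, 1 was higher (3.03%) and 0 lower, with a median of -0.02. This was Mlst8, an mTOR complex subunit, with deposited means of 7.96 CPM for Klrg1Cre and 5.10 CPM for control (unadjusted p = 0.0244, adjusted p = 0.618).

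Among these lists, the lysosomal ones showed the difference between the Klrg1Cre libraries that the cathepsins had. Among genes of at least 5 CPM with known libraries, 6 of 17 lysosomal hydrolases (35.3%) and 5 of 14 genes of lysosomal membranes and trafficking (35.7%) were more than 1.5-fold higher in the larger Klrg1Cre library, beside 6.32% of all such genes. Of the other endosomal sorting genes 2 of 18 were (11.1%), and of the other autophagy genes 0 of 12. Gpnmb, a glycoprotein of macrophage lysosomes, had 355 and 119 CPM in the larger and smaller Klrg1Cre libraries, against 184 and 193 CPM in control. Lgmn, the lysosomal asparaginyl protease, had 117 and 79.4 CPM in Klrg1Cre, against 102 and 110.2 CPM in control.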

How the data were processed

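RNA-seq was made from 4 samples, 2 per genotype. The submitters' processing notes name STAR, Partek and mouse build mm9, with no versions. The deposited file is the authors' own comparison, 1 row per gene. Its group means are CPM, to which an offset of 0.0001 had been added, per the file headers and values. The model behind the deposited p-values is not given in the sources used here, and the deposited adjusted p-values equal a Benjamini-Hochberg adjustment over all 11883 rows. The deposited ratio is the quotient of both means in all 11883 rows, the deposited signed fold change (a score) repeats it, and the deposited signal column of total counts, 2 times the sum of the means, was not used further.

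The plan named edgeR for counts and the authors' p-values otherwise, and the second applied, since no column holds 1 sample. Means were split into whole reads of 2 libraries where exactly 1 split existed (tolerance 0.02 of a whole number, means up to 20000 CPM), which gave 5351 genes in both genotypes and was tested on simulated data. For these genes log2(CPM + 1) was fitted with limma 3.58.1 (R 4.3.3), with a variance that follows the mean level. Other values were computed in Python 3.11.15 with pandas 2.3.3. Depth per library limits precision at low CPM, and p-values cover the spread between 2 samples per genotype.

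Transcript lengths are those of the GENCODE M21 transcript with the longest coding sequence. This annotation is of another build than the files, so the lengths are approximate. The members and gene lists were chosen with earlier results of these data known. Genes are named in the text where their unadjusted p was below 0.05, where they had the 2 highest means of their role group, or where they had its highest or lowest ratio at 5 CPM or more, and from the lists of related pathway genes where their unadjusted p was below 0.05. Further genes were named after their values were seen. Alternatives were pseudocounts, filters on low means, 2 other scalings, limma and leaving out each library.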

Additional observations from a re-analysis of the deposited data

How the results depend on the processing

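The count of members past the adjusted p was 0 by the authors' values, by limma over the 38 members with known libraries and with the adjustment over genes of at least 5 CPM. Members higher at an unadjusted p below 0.05 numbered 2 by the authors' values and with a mean of at least 5 CPM, but 0 by limma, which could not include Atg4d or Vps37c. Lower members numbered 0 under each. The median log2 ratio of all members was 0.01 with a pseudocount of 1 or 5 CPM and with a mean of at least 1 or 5 CPM, and -0.01 when scaled to the listed genes other than Rn45s. Leaving out 1 library at a time, the median of the 38 members ranged from -0.10 to 0.11, that of cathepsins from -0.34 to 0.30, of V1 genes from -0.27 to 0.09, of V0 genes from -0.08 to 0.15, of Atg genes from 0.00 to 0.18 and of Vps genes from -0.14 to 0.21. The log2 ratio of Atp6v0d2 ranged from -1.10 to 0.15. No paired analysis was possible because no column carries a replicate number. Depth limits the genes under 5 CPM, 10 of the 79.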

Other observations

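Retriever works in the larger Commander complex, whose other genes were looked up after the values of Vps35l and Vps26c had been seen. Of 13 listed genes, Ccdc22, Ccdc93, Commd1 to Commd10 and Fam45a, 8 had higher and 5 lower deposited means in Klrg1Cre, with a median log2 ratio of 0.03. Commd9 had 7.19 and 7.62 CPM in the Klrg1Cre libraries against 3.36 and 5.26 CPM in control (unadjusted p = 0.0160 and adjusted p = 0.599 in the authors' deposited table). Commd3 had 10.4 and 8.24 CPM in Klrg1Cre against 10.5 and 12.7 CPM in control. Ccdc22 had deposited means of 6.56 CPM for Klrg1Cre and 6.86 CPM for control, and Ccdc93 6.30 CPM for Klrg1Cre and 5.98 CPM for control.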
